A study of Ginkgo biloba with 9 samples.

Results

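Leaves of Ginkgo biloba grown at the high density of 80 plants per square metre (HD) were compared with leaves grown at the moderate density of 40 (MD), with 3 RNA-seq libraries per density. The trees were 2 years old, of the cultivar Fozhi, and stood in a nursery kept for leaf harvest, with ample light and fertile, drained soil for every group. A control density of 20 plants per square metre (CK, 3 libraries) belongs to the same series and is used here for the estimate of the spread and as a reference level. The deposited unit is FPKM, fragments scaled to gene length in kilobases and to library size, and tests were run on log2(FPKM + 1). A gene was included if it reached 1 FPKM in at least 3 of the 6 MD and HD libraries, which held for 19452 of the 41309 genes listed. Whether the 3 libraries of a group are different trees or repeats of one sample is not stated in the labels. P-values therefore describe the variation among these libraries only, and that variation may be technical. Density and the plants, plot and handling that go with it cannot be told apart.

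Close planting lowers the light that reaches each leaf and raises the proportion of far-red light reflected or passed on by neighbours. Seed plants sense this through phytochromes, and also compete below ground for water and nutrients. Ginkgo leaves are harvested for flavonol glycosides and terpene trilactones (ginkgolides and bilobalide). The identifiers in the table are not paired with gene names in the sources used here. Pathway genes and leaf markers could therefore not be looked up, the tissue label was not checked against markers, and at most 2 identifiers are named in each direction.

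The MD and HD libraries held 14703629 to 20206848 reads assigned to genes, a figure recovered from the step sizes of the deposited values. Replicate libraries resembled each other closely. The median absolute log2 difference between a pair of libraries was 0.106 to 0.113 within a density and 0.246 to 0.251 between MD and HD. The first principal component of the 6 libraries held 74.4% of the variance. MD3 and HD3 stood slightly apart in well-expressed genes. In the 1626 genes with a mean of at least 100 FPKM, the MD3 pairs differed by 0.047 and 0.048 and the HD3 pairs by 0.055 and 0.056. The pair of libraries numbered 1 and 2 differed by 0.037 at both densities. Between MD and HD, pairs differed by 0.206 to 0.221 in the same genes.

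Expression differed between the densities in a large part of the genes, mostly by small amounts. At 80 plants per square metre, 4045 genes were higher (20.8%) and 4446 were lower (22.9%) than at 40, together 8491 of 19452 (43.7%; limma, Benjamini-Hochberg adjusted p under 0.05). The balance of higher and lower genes depended on the scaling. Of the called genes, 47.6% were higher with the values as deposited. With every library scaled to the same summed FPKM (a sum of 1000000, as in TPM), the split was 6259 higher and 3108 lower (66.8% higher), and the median gene moved from 0.006 to 0.109 on the log2 scale. Without MD3, HD3 and CK3, 6708 genes were called, of which 6334 were among the 8491. In bulk leaf RNA, a lower level can mean fewer cells of a type or less RNA per cell, and these cannot be told apart.

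Most called differences were well below 2-fold. The absolute log2 fold change of called genes had a median of 0.42 (quartiles 0.28 and 0.66), against a median standard error of 0.096 over all tested genes. A change of at least 1.2-fold was called for 3193 higher and 3491 lower genes. At least 1.5-fold was reached by 1185 and 1433 genes, at least 2-fold by 387 (1.99%) and 478 (2.46%), and at least 4-fold by 38 (0.195%) and 83 (0.427%). These counts include genes that passed the filter through their higher density only, whose direction was thus fixed. How many of each list they are was not counted. The 2-fold counts rose to 604 and 792 with a pseudocount of 0.1 and to 641 and 842 with limma-voom on the recovered reads. When the test asked whether the change exceeded 1.5-fold (limma treat, adjusted p under 0.05), 379 genes were higher (1.95%) and 499 lower (2.57%), together 4.51% of those tested. The pointwise 95% interval of the change lay inside 1.5-fold for 12976 genes (66.7%) and inside 1.2-fold for 3444 (17.7%). Of these last, 378 were called, so small differences passed the test where the spread was narrow.

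The HD and MD libraries did not overlap in 10415 genes (53.5%), 5160 (26.5%) with all HD libraries above all MD libraries and 5255 (27%) with all below. Among the genes called with at least a 2-fold change, the groups did not overlap in 380 of the 387 higher and 476 of the 478 lower genes. These genes were chosen on the same libraries, so this follows largely from the choice and adds no support. The filter alone fixes the direction of some genes. Through their HD libraries only, with no MD library at 1 FPKM, 191 genes passed, and 173 of them were called. Through their MD libraries only, 253 passed, and 238 were called. Over all tested genes, 20.8% were called higher and 22.9% lower. The calls of genes whose direction the filter fixed are no result about them. All 6 libraries reached 1 FPKM in 17702 genes. Just outside the filter, the third-highest of the 6 values lay between 0.9 and 1 FPKM in 240 genes, and just inside it lay between 1 and 1.1 in 239.

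**Figure D1:**
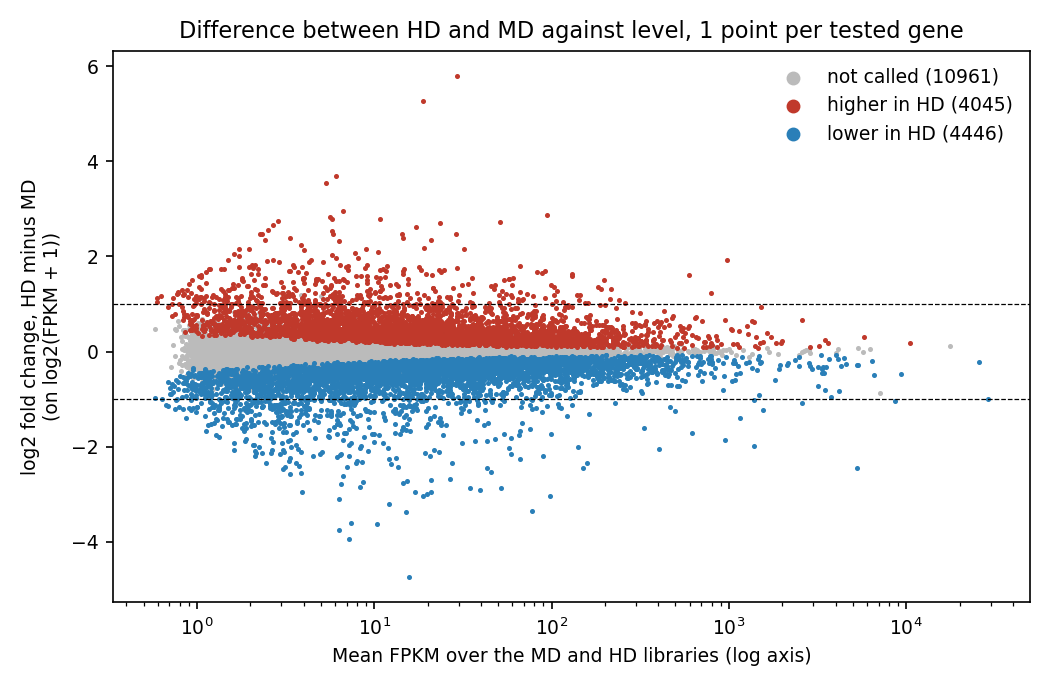
Each point is a tested gene, with its mean FPKM over the MD and HD libraries on a log axis and its log2 fold change from MD to HD on the vertical axis. Red points are the 4045 genes called higher in HD, blue points the 4446 called lower, grey points are not called, and dashed lines mark a 2-fold change. Most points lie between the dashed lines, and the largest rise and fall are 5.80 and -4.75.

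The 4 genes named next passed the filter through the 3 libraries of their higher density only. Their direction was thus fixed by the filter, and their fold changes are given as a description, without p-values. The gene with the largest rise from MD to HD was Gb_15706, whose product the files do not name. Its level was 61.5, 59.9 and 55.3 FPKM in HD1 to HD3. In the MD libraries it was listed at 0, 0.24 and 0 FPKM, from 0, 3 and 0 reads. All HD libraries were far above all MD libraries. On the log2 scale the difference was 5.80 (SE 0.109). By reads, with 1965 in HD and 3 in MD, the ratio was 627 (exact 95% interval 214 to 3040, counting error only). The control density did not share the low level of MD, since Gb_15706 stood at 25.4, 31.4 and 31.2 FPKM in CK1 to CK3.

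Gb_25181, a gene of 354 nt in the recovered lengths, had the next largest rise. It was at 38, 40.0 and 34.8 FPKM in the HD libraries and had 0 reads in each MD library, so the groups did not overlap. On the log2 scale the difference was 5.27 (SE 0.081). The 719 HD reads were at least 229-fold more than the 3 reads that a count of 0 over the MD group allows, after scaling to library size. In CK it was at 18.0, 16.3 and 16.6 FPKM, so it too was expressed at 20 and 80 plants per square metre and not detected at 40.

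The largest fall was that of Gb_29977. In the MD libraries it was at 31.4, 32.8 and 28.9 FPKM, and in the HD libraries at 0.212, 0.278 and 0.0818 FPKM, from 6, 8 and 2 reads. No HD value came near an MD value. On the log2 scale the difference was -4.75 (SE 0.101), and the read ratio of MD to HD was 158 (exact 95% interval 97.4 to 278). The CK libraries lay between, at 3.79, 4.32 and 4.34 FPKM.

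Gb_37528 followed, with 15.1, 13.2 and 14.7 FPKM in MD and 0 reads in all 3 HD libraries. On the log2 scale the difference was -3.94 (SE 0.091). With 304 reads in MD against none in HD, the level in MD was at least 106-fold higher. In CK it was at 11.3, 11.9 and 12.9 FPKM, and the MD minus CK difference was 0.24 on the log2 scale (SE 0.091). The HD minus CK difference was -3.70 on the log2 scale. The comparisons with CK share the MD or HD libraries with that of HD and MD.

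**Figure D2:**
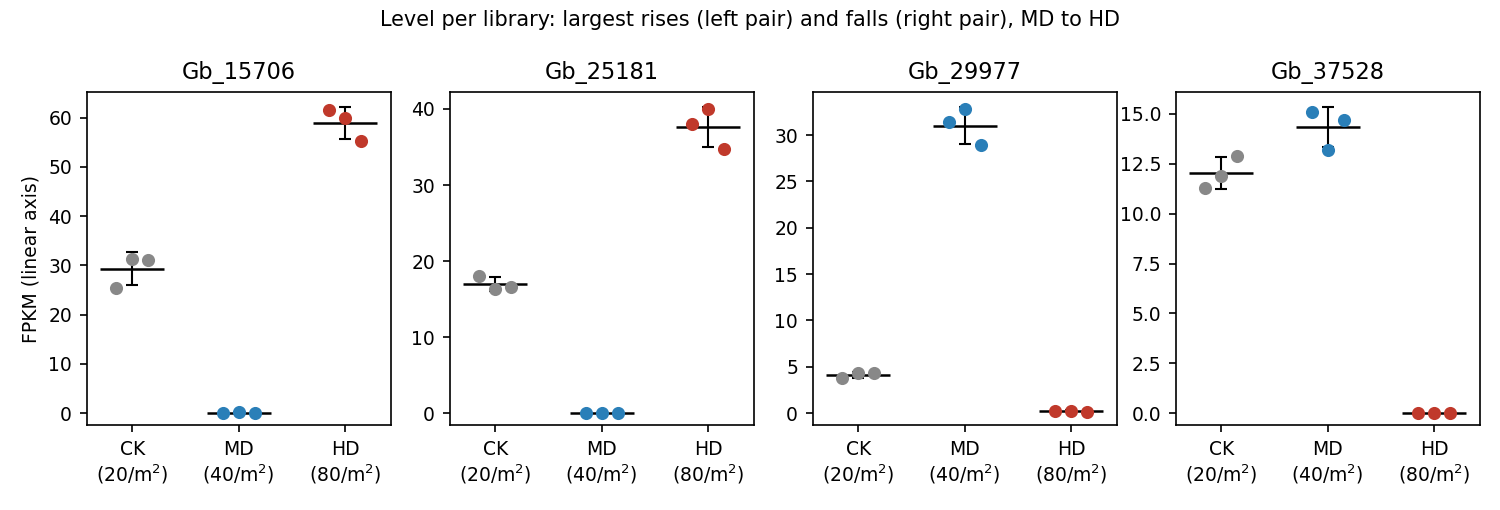
Points are single libraries in FPKM on a linear axis, by density, and horizontal lines with bars give the mean and SD of the 3 libraries. Gb_15706 and Gb_25181 are at or near 0 in MD alone, Gb_29977 is highest in MD, and Gb_37528 is at 0 in HD alone.

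Gb_25181 and Gb_37528 belong to a small number of genes with no reads at one density and reads at the other. Of the 41309 genes listed, 21 had 0 recovered reads in every MD library and at least 10 in every HD library, and in 6 genes the reverse held. The 21 genes had 40 to 719 reads over the HD libraries (median 88) and mean HD levels of 0.263 to 37.6 FPKM. Against the 3 reads that a count of 0 over the MD group allows, their HD levels were at least 12.8 to 229-fold higher. In the 6 genes, MD reads numbered 39 to 304, and the MD levels were at least 13.6 to 106-fold higher. The filter was passed by 15 of the 21 and 3 of the 6, each through its higher density only. In CK, 9 of the 21 genes had at least 10 reads in each library, 6 had none in any, and 6 lay between. Genes with a 0 in any library lie outside the check that reads were recovered as whole numbers. Of the 6 genes without reads in HD, 3 had at least 10 reads in each CK library, 2 had none, and 1 lay between.

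The genes called with at least a 2-fold change spanned low to high levels. The 387 higher genes went from a median of 2.69 FPKM in MD (quartiles 0.708 and 7.69) to 8.87 in HD (3.87 and 24.8). The 478 lower genes went from a median of 8.42 FPKM in MD (4.12 and 23.3) to 2.14 in HD (0.767 and 7.52). The median over all tested genes was 11 FPKM at both densities. A mean of at least 10 FPKM was reached by 136 of the higher and 160 of the lower genes, and of at least 100 FPKM by 23 of each. At 1000 FPKM or more, 0 genes were at least 2-fold higher and 7 of 110 at least 2-fold lower. Of the genes with at least a 4-fold change, 0 of the 38 higher and 5 of the 83 lower ones had a mean of at least 100 FPKM. Both lists were chosen by this contrast, so their levels are a description. In CK the higher genes had a median of 3.75 FPKM and the lower genes 5.54. Their median log2 fold changes were 1.27 for HD against MD, 0.97 for HD against CK and -0.35 for MD against CK in the higher genes. In the lower genes the same medians were -1.34, -0.83 and 0.57. These comparisons share libraries, and the values are set side by side only. Over all tested genes, 7189 (37%) were called between MD and CK and 10190 (52.4%) between HD and CK.

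The share of genes called rose with the level, and so did the precision. Below a mean of 10 FPKM, HD was higher in 1594 genes and lower in 1521 (33.8% of 9208), with a median standard error of 0.134 and a median of 81 reads per library. From 10 to 100 FPKM, 1995 were higher and 2229 lower (49% of 8618; median standard error 0.071). From 100 to 1000 FPKM, 428 were higher and 636 lower (70.2% of 1516; 0.041). At 1000 FPKM or more, 28 were higher and 60 lower (80% of 110; 0.028, with a median of 26709 reads per library). The median log2 fold change went from 0.032 in the lowest of these classes to -0.005, -0.057 and -0.141 in the highest, against 0.006 over all tested genes. Quantile normalization, which gives all libraries one distribution, turned the highest class to 51 higher and 36 lower. Scaling to equal sums narrowed it to 43 and 48. With equal sums the classes from 10 to 100 and from 100 to 1000 FPKM turned to 3239 higher and 1418 lower and to 635 and 410. The class from 10 to 100 FPKM also turned under total-read scaling (2484 and 1812) and quantile normalization (2146 and 2097). Below 10 FPKM more genes were higher than lower under all the scalings run.

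**Figure D3:**
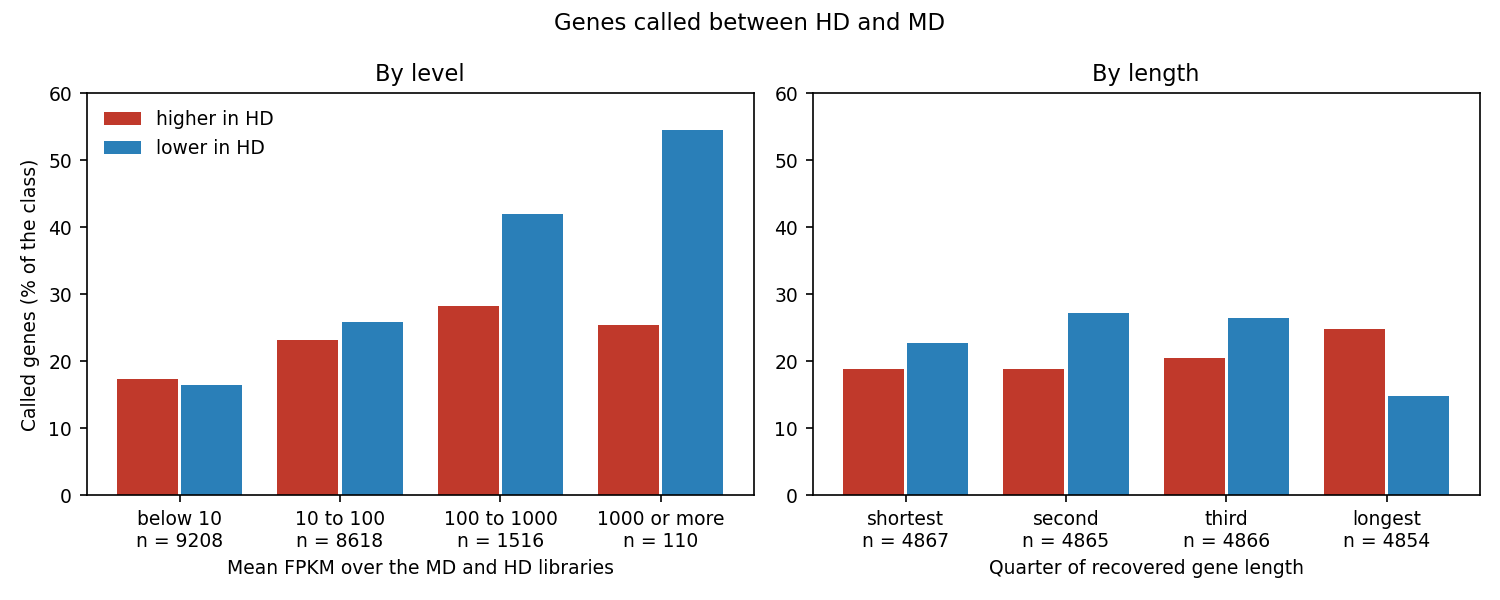
Bars give the percentage of tested genes called higher (red) or lower (blue) in HD than in MD, by mean FPKM on the left and by recovered gene length in 4 classes of near equal size on the right. With the values as deposited, lower genes outnumber higher ones in the classes above 10 FPKM, a split that other scalings turn in some classes, and higher genes outnumber lower ones in the longest genes.

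Gene length went with the direction of the difference. The choice of genes depended on length in part, since FPKM is scaled to length and a short gene passes the filter with fewer reads. The shortest genes had a median of 103 reads per library and the longest 355. The genes were divided into 4 length classes of near equal size by the lengths recovered from the FPKM steps. Of the 21602 genes with no 0 in any library, 86.9% had a length that is a multiple of 3, as coding sequences have. Tested genes with a 0 in any library are not covered by this figure. In the longest genes, those of 1892 nt or more, 1209 were higher and 722 lower in HD, and the median log2 fold change was 0.079. In the other classes more genes were lower with the values as deposited, with 917 higher and 1110 lower in the shortest genes (up to 642 nt), 921 and 1326 from 643 to 1158 nt, and 998 and 1288 from 1160 to 1890 nt. Their median log2 fold changes were -0.014, -0.037 and -0.024. These splits turned to 1318 and 766, 1392 and 942, and 1568 and 908 with equal sums. Under total-read scaling they were 1065 and 941, 1103 and 1139, and 1236 and 1092. The sizes are small beside single gene changes, but exceeded the spread between libraries. For each pair of an MD and an HD library, the median difference of the longest genes was above that of the rest by 0.085 to 0.117. Pairs of libraries of one density, the later number minus the earlier, gave between -0.022 and 0.003, with a sign set by that order. The pairs share the same libraries and are not independent. The difference from the rest in the fitted fold changes was 0.104, and 0.11 without the libraries numbered 3. As a level, the median log2(FPKM + 1) of the longest genes minus that of the rest was -0.819, -0.804 and -0.825 in MD1 to MD3, and -0.717, -0.708 and -0.739 in HD1 to HD3. These sets of values did not overlap (exact permutation test, two-sided p = 0.1, the smallest that 3 against 3 can give). In CK the same value was -0.789, -0.781 and -0.774, between the others.

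The lean of long genes was present at low and middling levels. Below 10 FPKM, 610 of the longest genes were higher and 352 lower, while the shortest genes had 323 and 281. From 10 to 100 FPKM the longest genes had 558 higher and 328 lower, and the shortest 439 and 511. From 100 to 1000 FPKM, 40 of the longest genes were higher and 40 lower, against 149 and 285 of the shortest. In the shortest genes at 1000 FPKM or more, 6 were higher and 33 lower, with a median log2 fold change of -0.33. The longest genes were higher more often than lower under all the scalings run, with 62.6% to 80.1% of their called genes higher. Over all tested genes this share was 47.6% to 66.8%, and both upper values came from scaling to equal sums. The rank correlation of length and log2 fold change over the 19452 genes was weak, with a Spearman rho of 0.078. The genes share the same 6 libraries, and long genes were of lower level (rho of -0.156 between length and mean FPKM).

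**Figure D4:**
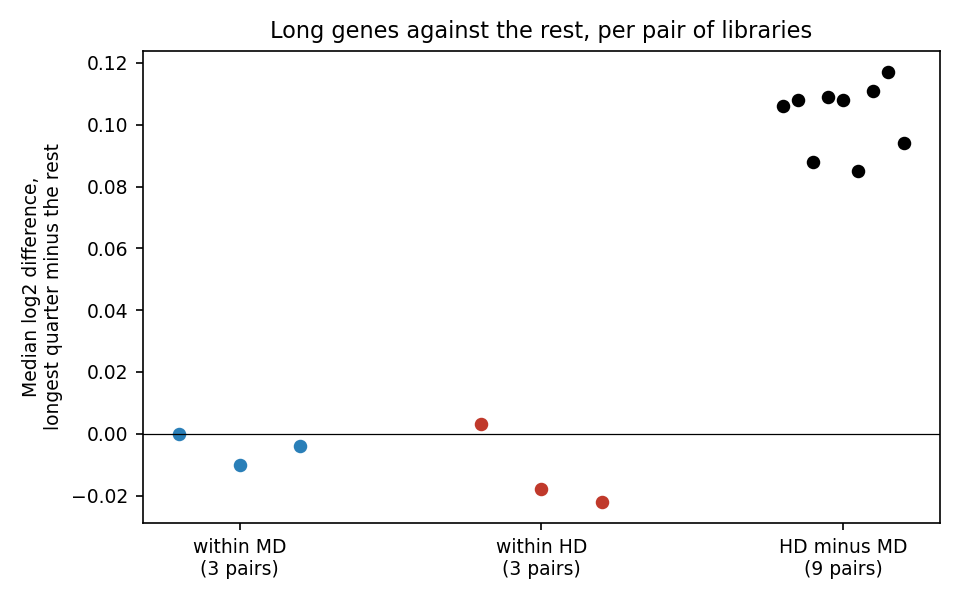
Each point is a pair of libraries, and the vertical axis is the median log2 difference of the longest genes (1892 nt or more) minus that of all other tested genes. The 9 pairs of an HD and an MD library lie at 0.085 to 0.117, and the 6 pairs within a density between -0.022 and 0.003. The pairs share the same libraries and are not independent, and the sign within a density is set by the order of subtraction.

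The most abundant transcripts had a lower summed level at the high density. The 110 genes whose mean reached 1000 FPKM summed to 397754, 396293 and 395536 FPKM in MD1 to MD3. In HD1 to HD3 the sums were 327496, 328817 and 327069. All HD sums lay below all MD sums, and the means differed by -17.3% (exact permutation test, two-sided p = 0.1, the smallest that 3 against 3 can give). The change was -14.2% when libraries were scaled to total reads, -10.3% with equal sums, and -0.319% after quantile normalization, which by its construction nearly equalises such sums. Without MD3 and HD3 it was -17.3%. As a share of recovered reads, which does not weigh short genes more, these genes took 28.4% ± 0.153 in MD and 26.1% ± 0.173 in HD (SD, n = 3 each). In CK the sums were 396478, 397827 and 383365 FPKM.

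A few very abundant, mostly short genes made up 75.5% of this fall. The 10 genes with the largest loss of FPKM, a set chosen by this contrast and given as a description, summed to 129275 ± 1987 FPKM at the moderate density and to 77351 ± 952 FPKM at the high density (SD over 3 libraries), a change of -40.2%. Of the 10, 8 were 600 nt long or shorter, and 9 were called lower, with log2 fold changes over the 10 from -2.45 to -0.22. The gene with the largest loss was at 37135, 37523 and 41005 FPKM in MD and at 18318, 18680 and 21153 FPKM in HD, and alone accounted for 19171 of the 51924 FPKM lost by the 10. It was higher in MD3 and HD3 than in the other libraries of its density, but no HD value came near an MD value. Its CK values were 37724, 38494 and 41077 FPKM, close to those of MD. Without these 10 genes the summed level of the remaining 100 changed by -6.29%, from 267253 ± 2891 to 250443 ± 1517 FPKM.

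**Figure D5:**
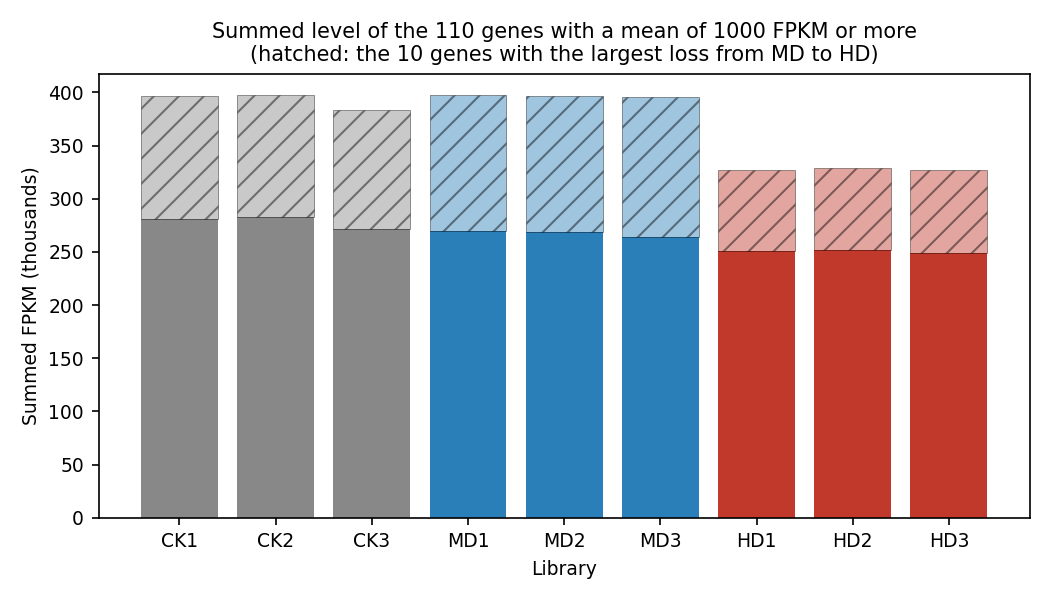
Bars give the summed FPKM of the 110 genes whose mean reached 1000 FPKM, per library, with the 10 genes of largest loss from MD to HD hatched. The HD libraries reach 327069 to 328817 FPKM and the MD libraries 395536 to 397754, and most of the gap lies in the hatched part.

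Over all tested genes, losses outweighed gains on the FPKM scale. Genes with a lower mean in HD lost 157543 FPKM in all and genes with a higher mean gained 72794, called or not. The 10 genes above made up 33% of the loss. The largest gain of a single gene was 1379 FPKM. The sum over all genes of the table went from 1083455 FPKM in MD to 998731 in HD as deposited, a change of -7.82%. The library sizes by which the deposited values were divided were 0.9987 to 1.0056 times the recovered reads in MD and 1.0371 to 1.0415 times in HD. In CK they were 0.9716 to 0.9877 times the recovered reads. What these sizes count is not stated in the sources used here. Total-read scaling, which replaces them by the recovered reads, gave -14.2% in place of -17.3% for the summed level of the 110 most abundant genes. For the sum over all genes their part was not tested.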

How the data were processed

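RNA sequencing of Ginkgo biloba leaves gave 9 libraries at 3 planting densities, grouped by the sample titles. The authors deposited 1 table of FPKM values, per the file headers. CASAVA 1.8, TopHat2 and RSEM are listed without roles, per the submitters' processing notes. Neither a genome build nor an annotation is given in the sources used here. Each of the 9 columns matched 1 title, with 0 columns left over. Genes were not matched to names, coordinates or sequences.

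Read numbers were recovered from the FPKM steps, with relative depths from low genes with equal reads in a pair of libraries. A gene's first step was the largest giving whole numbers. Where needed, its reads and length were then multiplied by a whole number that made the length whole and at least 60 nt. Whole numbers, within 0.001 reads plus rounding, were obtained for 100% of the 21602 genes with no 0. In simulated reads, 99.9% of 4967 genes came back exactly. The recovered reads were 14703629 to 22445995 per library. Exact intervals and the limit of 3 reads behind a count of 0 cover counting error only.

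limma 3.58.1 (R 4.3.3) was run with a trend of variance on level for log2(FPKM + 1), in 1 fit of all 9 libraries without a replicate block. Fold changes are on that scale, which understates changes of low genes. Called means a Benjamini-Hochberg adjusted p under 0.05 over all 19452 tested genes. In simulated data with 200 changed genes among 19324 tested, the share found for HD against MD was 8% at 1.2-fold, 44% at 1.5-fold, 64% at 2-fold and 96% at 4-fold, and 6 unchanged genes were called. In the data 43.7% of genes were called, so the cutoff on unadjusted p was stricter in the simulation. These shares are therefore not the sensitivity of the fit to the data. Named genes are the called genes whose groups do not overlap and that rose most (2 genes) or fell most (2 genes). The genes, classes and lists were chosen with earlier results of these data known. Alternatives were other pseudocounts, filters, scalings, variance estimates, a replicate block, limma-voom and the removal of libraries. The gene lists drawn up for named pathways were not used, since no names were at hand.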

Additional observations from a re-analysis of the deposited data

How the results depend on the processing

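The libraries of CK left out in turn, the removal of all libraries numbered 3, the alternatives of the higher and lower counts, of the 2-fold counts and of the long genes, and the removal of 10 genes were chosen after seeing the data. The number of genes called lay between 7380 and 8412 with single libraries left out and between 6708 and 9367 under the other settings, within 1.5 times of 8491. The number beyond 1.5-fold lay between 604 and 1212. Genes higher in HD numbered 6259 with all libraries scaled to equal sums, where the higher levels follow from the lower sum of FPKM in HD, and 3392 to 3983 with single libraries left out. Higher genes also outnumbered lower ones under total-read scaling (4915 and 3777) and quantile normalization (4290 and 4234). At least 2-fold changes numbered 604 higher and 792 lower with a pseudocount of 0.1, 641 and 842 by limma-voom, and 215 and 244 among genes with a mean of at least 5 FPKM, where fewer genes were tested. The fall of the summed level of abundant genes kept its direction in all settings run, and was -17.5% to -17.2% with single libraries left out. The difference of the longest genes from the rest was 0.094 to 0.122. Each of the 4 named genes kept its direction and its call in each of its 21 recomputed fits, which shows no stability, since these genes were chosen at the extremes. Their log2 fold changes were larger by limma-voom or a pseudocount of 0.1, up to 9.34 for Gb_15706, 8.83 for Gb_25181, -7.32 for Gb_29977 and -7.73 for Gb_37528, since low values are raised less there. The fit with the replicate block called 8477 genes, 857 of them beyond 1.5-fold, and changed no call of a named gene. Equal numbers were not treated as pairs, since no label says that they share a plot, tree or day. Deviations from the mean of the density correlated across genes by 0.001, -0.003 and 0.079 for MD1 with HD1, MD2 with HD2 and MD3 with HD3. Unequal numbers gave -0.05 to 0.05. In the genes of 100 FPKM or more the values were 0.123, 0.129 and 0.369, against -0.249 to 0.172. The libraries numbered 3 thus lay above all unequal pairs in both sets, and whether they share a factor was not tested. Deviations within a density depend on each other, so the unequal pairs are not an independent reference.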

Other observations

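Genes below the filter of 1 FPKM numbered 7367 among those with any read in the MD and HD libraries, and 14490 further identifiers were at 0 in all 6. In a fit without the filter, 763 of the 7367 were called between HD and MD (10.4%; limma, adjusted p under 0.05), 384 higher and 379 lower in HD. Their median absolute log2 fold change was 0.46 on the log2(FPKM + 1) scale. The called genes had a median of 45 recovered reads over the 6 libraries and the others 11.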
